A study of Homo sapiens with 4 samples.

Results

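The Mediator complex was examined through its 32 subunit genes, found by gene symbol among the 62443 genes of the deposited table. The list was chosen from known subunits, with earlier results of these same libraries in view, so the differences between GLUP and control given for it are a description, and no test over the list is used as support. Of the 32 genes, 20 passed the filter on low values (mean level across the 4 libraries not under 1 FPKM) and were among the 7588 genes tested. FPKM corrects fragment numbers for transcript length and library size. All libraries came from HGC-27, a human gastric cancer cell line, grown in the same medium with 10% fetal bovine serum. In 2 libraries the cells had received the GLUP peptide at 10 μg/ml, and in the 2 control libraries (Con) the labels record no treatment, whereas the methods name the stock buffer of the peptide. The duration of treatment is 12 h in one place of the text and 48 h in another. GLUP was designed to hold TEAD4, a DNA-binding transcription factor of the Hippo pathway, in condensates that repress transcription, and the comparison asks which transcripts differ after its addition. The methods describe the replicates as biological, without saying how the cultures were separated, and with 2 libraries per group p-values rest on the spread between these libraries.

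Mediator is the large complex that carries signals from DNA-bound transcription factors to RNA polymerase II at promoters. Its head module contacts the polymerase and the general transcription factors, the middle module connects head to tail, the tail module holds most of the surfaces that transcription factors bind, and MED14 runs through the core as the scaffold. A separate kinase module (CDK8 or CDK19 with cyclin C, MED12 and MED13 or MED13L) binds the core reversibly and competes with the polymerase. Subunits are used in a fixed ratio in the core, whereas their mRNA levels need not be in any ratio.

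Control replicate 2 stood apart from the other libraries. Over all genes tested the control libraries correlated with each other at r = 0.933, and the r of control replicate 1 with the GLUP pair was 0.952 and 0.957, while that of control replicate 2 was 0.873 and 0.886. Between both GLUP libraries r was 0.986. Over the 32 subunit genes alone the order was different, with r = 0.988 between the control libraries, 0.989 between the GLUP libraries and between 0.892 and 0.932 across the groups. These coefficients are across genes, which are not independent replicates. Keratin markers of the epithelial label were low (KRT8 between 1.05 and 2.25 FPKM in the 4 libraries), EPCAM stayed at or under 0.124 FPKM and CDH1 at or under 0.0799, whereas vimentin (VIM), a mesenchymal marker, lay between 293 and 387 FPKM. KRT8, KRT18 and KRT19 had both GLUP libraries above both control libraries (as did 17.5% of all genes tested), with log2 fold changes of 0.51, 0.57 and 0.29. Of the fibroblast list all 4 of 4 genes were above the filter (LUM between 59.0 and 76.7, DCN between 20.1 and 41.3, COL3A1 between 15.3 and 21.5 and COL1A1 between 2.97 and 6.90 FPKM). Both GLUP libraries were above the control pair for COL1A1 (log2 fold change 0.61) and below it for DCN (-0.62). The part of these markers in the results was not tested. The leukocyte markers PTPRC, CD3E, CD68 and CD79A and the endothelial marker VWF were at or near 0 in all 4 libraries.

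The subunit genes differed in both directions. Among the tested genes MED7 and MED21 of the middle module and CCNC of the kinase module were the lowest in GLUP relative to control, and MED27, MED24, MED16 and MED30 of the tail were the highest. MED15 and MED23 of the tail, under the filter, had mean levels 3.37 and 0.187 times those of control. In bulk RNA, fewer cells of a kind and less RNA per cell cannot be told apart. Among the 20 genes tested 14 had a lower and 6 a higher mean log2 level in GLUP, beside 66.7% of all genes tested with a lower one. The GLUP libraries were both below the control pair for 11 of the 20 (49.7% of all genes tested) and above them for 5 (17.5% of all genes tested). The median log2 fold change of the 20 was -0.29, beside -0.36 for all genes tested, so the median gene of the complex differed from that of all genes by 0.06. By a fold change over 2 with an unadjusted p under 0.05, 3 genes were lower (MED7, MED21 and CCNC, beside 14.5% of all genes tested) and 1 was higher (MED27, beside 4.67%). Of the 20, 6 had an unadjusted p under 0.05, beside 2409 of all 7588 genes tested. With Benjamini-Hochberg adjustment in limma 0 of the 20 passed an adjusted p of 0.05 with a change over 2-fold, beside 0.0264% of all genes tested, and the smallest adjusted p among the subunit genes was 0.10. The shift of all genes depends on the scaling. After centring each library on its median, the median of the 20 genes was 0.048 in place of -0.29, and 65.0% of the genes called at an unadjusted p under 0.05 and over 2-fold were higher in GLUP, against 24.3% without it.

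Without control replicate 1 or control replicate 2, more subunit genes passed the adjusted threshold, with the lone control library then assumed to vary like the GLUP libraries. Without control replicate 1, MED7, MED21 and MED27 passed with a change over 2-fold (limma, adjusted p = 0.00255, 0.0030 and 0.00514). Without control replicate 2, MED7, MED21 and CCNC passed (limma, adjusted p = 0.0171, 0.0250 and 0.0277). Leaving out either GLUP library gave 0 such genes, with smallest adjusted p-values in limma of 0.579 and 0.524. The number of genes called among all 7588 moved in the same way, to 2710 without control replicate 1, 1020 without control replicate 2 and 4 without either GLUP library, from 2 with all libraries.

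The sequences before the start sites of genes at both ends of the fold-change order are shown because GLUP is aimed at TEAD4, and the letters bound by TEAD proteins can be looked for there. RefSeq promoters of the build GRCh38.p14 (250 bases before to 50 after each start) were found for 24 of the 32 genes, 29 promoters in all, and the 250 bases before the start are printed for the 2 genes with the lowest and the 2 with the highest fold changes among those tested that have one. All 4 lie on the minus strand and are written 5′ to 3′ in the direction of the gene: MED7 at chr5:157142866-157143115, CCNC at chr6:99568815-99569064, MED24 at chr17:40054409-40054658 and MED27 at chr9:132079868-132080117. MED7 and CCNC each have 2 promoters in the table, of which the first is printed. Capitals mark motif letters.
MED7: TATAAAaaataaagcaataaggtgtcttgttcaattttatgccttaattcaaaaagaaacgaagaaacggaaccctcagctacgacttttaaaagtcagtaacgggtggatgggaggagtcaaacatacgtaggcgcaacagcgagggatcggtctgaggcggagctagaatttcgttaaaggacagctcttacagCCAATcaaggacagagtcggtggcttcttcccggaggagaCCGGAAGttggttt
CCNC: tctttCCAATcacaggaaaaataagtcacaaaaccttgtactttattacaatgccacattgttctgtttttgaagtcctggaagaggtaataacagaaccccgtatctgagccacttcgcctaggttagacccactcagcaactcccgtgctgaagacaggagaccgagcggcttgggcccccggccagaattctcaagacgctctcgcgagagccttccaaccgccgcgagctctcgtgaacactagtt
MED24: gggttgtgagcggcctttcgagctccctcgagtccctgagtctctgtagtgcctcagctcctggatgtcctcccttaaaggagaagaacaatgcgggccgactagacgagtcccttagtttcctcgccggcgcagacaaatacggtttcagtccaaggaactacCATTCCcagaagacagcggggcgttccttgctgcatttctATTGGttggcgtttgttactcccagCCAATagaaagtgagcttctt
MED27: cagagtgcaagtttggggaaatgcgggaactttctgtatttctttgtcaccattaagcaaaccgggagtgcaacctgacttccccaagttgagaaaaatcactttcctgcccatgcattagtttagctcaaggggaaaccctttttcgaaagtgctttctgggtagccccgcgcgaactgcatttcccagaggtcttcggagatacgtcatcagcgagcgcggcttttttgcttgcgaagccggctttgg
In the MED7 sequence the capitals are, from the 5′ end, the TATA letters TATAAA, the CCAAT box CCAAT and the ETS letters CCGGAAG, which begin 250, 54 and 14 bases before the start. The CCNC sequence holds a CCAAT box 245 bases before the start. The MED24 sequence holds the TEAD letters as their reverse complement CATTCC, 86 bases before the start, and CCAAT boxes on the opposite strand and on the gene's own strand that begin 46 and 21 bases before it. None of the motifs searched was found for MED27. A match is a description of letters in this window.

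Both strands of all 35116 promoters of the table were searched over the same 300 bases. The TEAD letters GGAATG were in 10.3% of the 29 subunit promoters (those of MED20, MED24 and MED25) and in 14% of all promoters. The ETS letters CCGGAAG were in 27.6% against 10.3% of all, in promoters of MED7, MED11, MED15, MED17, MED18, MED29 and MED31, and the YY1 letters AAGATGGCG were in 13.8% against 1.75%, in those of MED1, MED16, MED18 and MED25. The NRF1 letters GCATGCGC were in 10.3% against 3.05%, the CCAAT box in 34.5% against 34.6% and the TATA letters in 6.90% against 11.5%. Genes with the ETS letters stood at both ends of the values below, with MED7 among the lowest and MED15 among the higher ones. The median GC content of the subunit promoters was 58.0%, against 58.7% over all promoters. Across the 14 tested genes with a promoter in the subunit set, promoter GC content had a Spearman rho of -0.13 with the fold change.

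Levels differed far more between subunit genes than between groups. Mean levels over the 4 libraries ran from 0.138 FPKM for CDK19 to 120 FPKM for MED30, with a median of 1.26 FPKM over the 32 genes. MED30 was followed by MED10, MED8, MED7, and MED21, and MED14, MED23, MED25 and CDK19 were the lowest. Longer transcripts had lower levels. The Spearman rho of the level with the length of the longest annotated transcript was -0.68 over the 32 genes, against 0.21 over the 28873 genes above 0, and FPKM already divides by length. Over genes past the filter it was -0.44 for the 20 subunit genes and -0.25 for all 7588. The 12 genes with a longest transcript of up to 2500 bases had a median level of 6.78 FPKM, and the 9 with one over 5000 bases had 0.307 FPKM. Most of the large subunits, among them MED1, MED12, MED13L, MED14 and MED23, were under the filter.

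**Figure D1:**
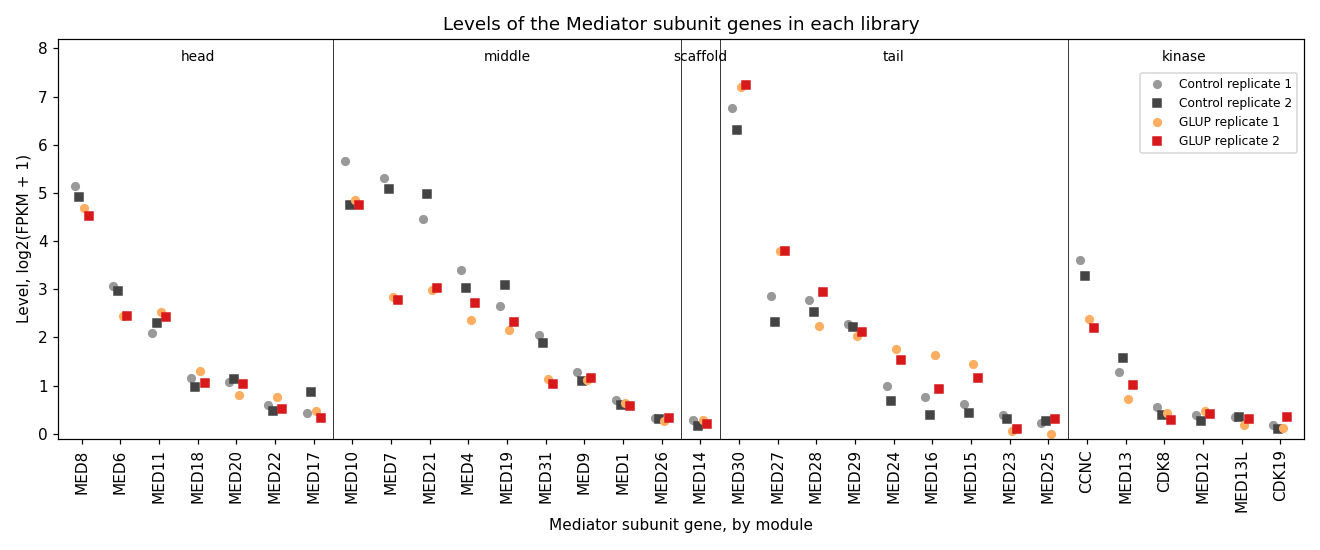
Level of each of the 32 subunit genes as log2(FPKM + 1), grouped by module and ordered by mean level within it, with a grey circle and dark square for control replicates 1 and 2 and an orange circle and red square for GLUP replicates 1 and 2. MED7, MED21 and CCNC have both GLUP points well below both control points, MED27 has both above, and MED30 is the most abundant in every library.

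The plot of levels by library shows the widest gaps between the groups for MED7 and MED21 of the middle module. All 7 of its tested genes had a lower mean log2 level in GLUP, 5 of them without overlap between the groups (beside 66.7% and 49.7% of all genes tested), and their median log2 fold change was -0.67, which is 0.31 below that of all genes tested. After a correction for GC content, in which a smooth curve along transcript GC content was subtracted from each library, MED4 and MED10 were higher (0.17 and 0.04), and MED9 was higher after centring (0.29). MED7 and MED21 form the hinge that connects the middle to the head.

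MED7 (ENSG00000155868) was at 38.6 and 32.8 FPKM in control and at 6.15 and 5.81 in GLUP. Both GLUP values lay far below both control values, and neither pair spread widely (35.7 ± 4.14 against 5.98 ± 0.241, SD, n = 2 each). The mean was 5.97 times higher in control than in GLUP, and the log2 fold change on the log2(FPKM + 1) scale was -2.39 (SE 0.31, adjusted p = 0.10 in limma). MED21 (ENSG00000152944) was at 20.9 and 30.6 FPKM in control and at 6.91 and 7.10 in GLUP. The groups were again apart, with the control values further from each other than the GLUP values. Its log2 fold change was -1.72 (SE 0.34, adjusted p = 0.10 in limma). Between the 4 fits without 1 library, that of MED7 ran from -2.50 to -2.27 and that of MED21 from -1.98 to -1.46.

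MED31 (ENSG00000108590), a small and highly conserved middle subunit, was at 3.16 and 2.71 FPKM in control and at 1.20 and 1.05 in GLUP. The groups did not overlap, and the log2 fold change was -0.89 (SE 0.25, adjusted p = 0.103 in limma). Its exons share 58.4% of their bases with TXNDC17 on the opposite strand, a far more abundant transcript at 87.3 and 132 FPKM in control and 69.9 and 94.9 in GLUP. Whether the counting used strand is not given in the sources used here, so reads of the 2 genes may not be told apart. MED4, MED19, MED9 and MED10 had log2 fold changes of -0.67, -0.64, -0.05 and -0.41. MED4 and MED19 had both GLUP libraries below both control libraries and MED9 overlapped. MED10 was at 49.8 and 25.9 FPKM in control and at 27.9 and 26.0 in GLUP, so that control replicate 1 alone was high, and its log2 fold change without that library was 0.05. Under the filter were MED1, the subunit that nuclear receptors bind, and MED26, which recruits elongation factors. MED1 was at 0.631 and 0.508 FPKM in control and at 0.558 and 0.486 in GLUP, with overlap between the groups.

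The 6 tested genes of the tail had a median log2 fold change of 0.69, which is 1.05 above that of all genes tested and 0.48 above it after the correction for GC content. Both GLUP libraries lay above both control libraries for MED16, MED24, MED27 and MED30, below them for MED29, and overlapped for MED28. Of all genes tested 17.5% lay above in this way and 49.7% below. Some structural accounts place MED27 to MED30 in the head or between head and tail. With these 4 genes moved to the head, the head median stood 0.29 above all genes. The tail median, then of MED16 and MED24 alone, stood 1.11 above. Both have transcripts of high GC content (64.8% and 56.7%), in the highest of 5 equal groups of genes by GC content, of which 26.5% were lower. After the correction for GC content their log2 fold changes were 0.11 and 0.49.

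MED27 (ENSG00000160563), at the junction of tail and head, was at 6.21 and 4.01 FPKM in control and at 13.0 and 12.8 in GLUP. The GLUP libraries nearly coincided, and both were above both control libraries. The mean was 2.53 times that of control, with a log2 fold change of 1.21 (SE 0.32, adjusted p = 0.101 in limma). It was no longer past the rule of 2-fold with an unadjusted p under 0.05 without control replicate 2 (0.95) or without either GLUP library (1.20 and 1.22). MED24 (ENSG00000008838), which takes part in activation by nuclear receptors, was at 0.987 and 0.603 FPKM in control and at 2.41 and 1.91 in GLUP. The groups did not overlap, though all values were low, and the log2 fold change was 0.82 (SE 0.25, adjusted p = 0.113 in limma). MED16 (ENSG00000175221) was at 0.709 and 0.315 FPKM in control and at 2.09 and 0.906 in GLUP. The GLUP libraries differed from each other by more than the lower of them differed from control replicate 1. The log2 fold change was 0.69 (SE 0.32, adjusted p = 0.188 in limma), and 0.35 without GLUP replicate 1.

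MED16, with a mean of 1.00 FPKM, lay just inside the filter, and MED15, with 0.968 FPKM, just outside. MED15 (ENSG00000099917), a target of the SREBP and SMAD factors, was at 0.537 and 0.350 FPKM in control and at 1.75 and 1.24 in GLUP. Both GLUP values were above both control values, as for MED16 and MED24. In a fit that kept all genes above 0 its log2 fold change was 0.78. MED30 (ENSG00000164758), a subunit of animals that yeast lacks and the most abundant transcript of the complex, was at 107 and 78.1 FPKM in control and at 146 and 150 in GLUP. The groups did not overlap, and the log2 fold change was 0.69 (SE 0.34, adjusted p = 0.210 in limma). MED28 and MED29 had log2 fold changes of -0.07 and -0.18, and both were higher after centring (0.27 and 0.17). Of the tail genes under the filter, MED23, which binds ELK1, was at 0.309 and 0.241 FPKM in control and at 0.0358 and 0.0669 in GLUP, and MED25 overlapped between the groups and was listed at 0 in GLUP replicate 1.

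**Figure D2:**
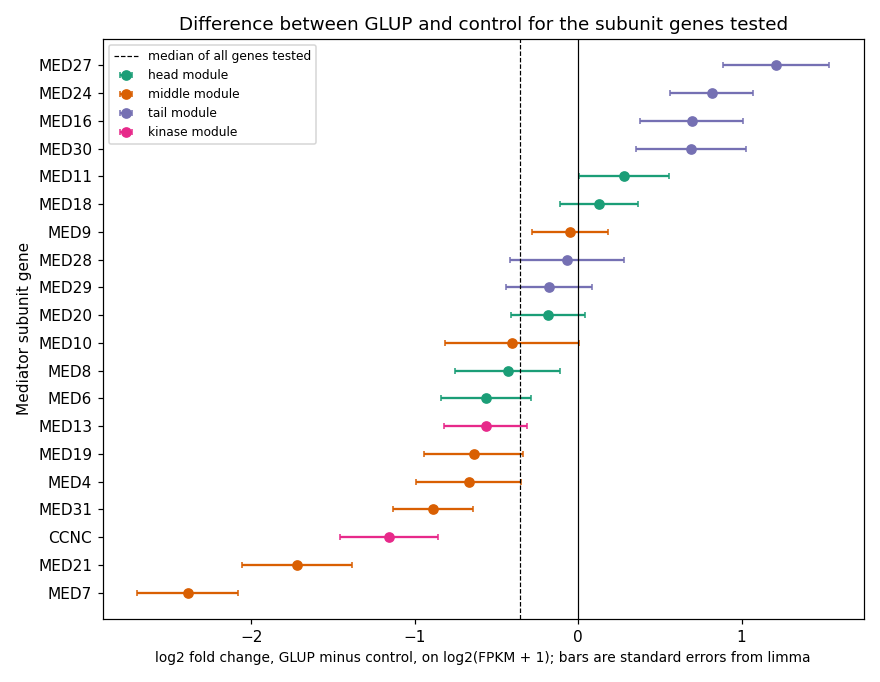
Log2 fold change (GLUP minus control, on log2(FPKM + 1)) of the 20 subunit genes tested, as points coloured by module with bars of 1 standard error from limma, beside a solid line at 0 and a dashed line at the median of all genes tested (-0.36). MED7 at -2.39 and MED27 at 1.21 mark the ends, the top 4 genes belong to the tail, and the lowest 6 belong to the middle and kinase modules.

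The head module stood nearest to all genes in this fit, though not with the GC correction, where the kinase module did (-0.061 against 0.18 for the head), or with all genes above 0 (-0.094 against -0.16). The 5 genes tested had a median log2 fold change of -0.18, which is 0.17 above that of all genes tested. Of them 3 were lower and 2 higher, beside 66.7% of all genes tested that were lower. MED6 (ENSG00000133997) was at 7.37 and 6.76 FPKM in control and at 4.46 and 4.44 in GLUP. Its groups did not overlap, with a log2 fold change of -0.56 (SE 0.28, adjusted p = 0.212 in limma), which became 0.18 after the correction for GC content. MED8 (ENSG00000159479), which anchors the MED18 and MED20 pair, was at 34.6 and 29.2 FPKM in control and at 24.6 and 22.1 in GLUP. Again both GLUP values were lower, by a log2 fold change of -0.43 (SE 0.32, adjusted p = 0.362 in limma). MED11 (ENSG00000161920) was at 3.28 and 3.92 FPKM in control and at 4.81 and 4.36 in GLUP, and was the only head gene of those tested with both GLUP libraries above both control libraries. Its log2 fold change was 0.28 (SE 0.27, adjusted p = 0.482 in limma). MED18 and MED20, the movable jaw of the head, had log2 fold changes of 0.13 and -0.18. MED20 was higher after centring (0.16) and after the correction for GC content (0.10). It passed the filter only through its control mean (1.15 FPKM, against 0.901 FPKM in GLUP). MED17 and MED22 were under the filter and overlapped between the groups.

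The scaffold gene MED14 (ENSG00000180182) was under the filter, at 0.213 and 0.123 FPKM in control and at 0.226 and 0.154 in GLUP. The values of the groups were interleaved. Its protein spans the core and touches the head, middle and tail, and its mRNA level was among the lowest of the 32 genes in these libraries.

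In the kinase module CCNC and MED13 passed the filter, and both were lower in GLUP, as were 66.7% of all genes tested. MED13 had a mean of 1.72 FPKM in control and 0.840 FPKM in GLUP, so it passed the filter only through its control values. CCNC (ENSG00000112237) encodes cyclin C, which activates CDK8 and CDK19, and was at 11.3 and 8.74 FPKM in control and at 4.24 and 3.59 in GLUP. The groups did not overlap, and the log2 fold change was -1.16 (SE 0.30, adjusted p = 0.101 in limma). CCNC no longer passed the rule of 2-fold with an unadjusted p under 0.05 after centring (-0.81), after quantile normalization (-0.76), or without control replicate 1 (-0.99), GLUP replicate 1 (-1.25) or GLUP replicate 2 (-1.06). Its exons share 13.1% of their bases with TSTD3 on the opposite strand, which was at 7.53 and 14.2 FPKM in control and 2.05 and 2.32 in GLUP. MED13 (ENSG00000108510), which joins the kinase module to the core, was at 1.45 and 2.00 FPKM in control and at 0.651 and 1.03 in GLUP. Both GLUP values were lower, with a log2 fold change of -0.57 (SE 0.25, adjusted p = 0.184 in limma), which became 0.19 after the correction for GC content. Its paralogue MED13L was at 0.281 and 0.280 FPKM in control and at 0.137 and 0.235 in GLUP. MED13 exceeded MED13L between 4.38 and 7.14 times in the 4 libraries.

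The kinases themselves were low. CDK8 was at 0.474 and 0.303 FPKM in control and at 0.351 and 0.211 in GLUP, and CDK19 at 0.128 and 0.0743 in control and at 0.0800 and 0.271 in GLUP. Both overlapped between the groups. CDK8 was between 3.69 and 4.39 times as high as CDK19 in 3 libraries and 0.779 times as high in GLUP replicate 2. MED12, which positions cyclin C to activate the kinase, was at 0.304 and 0.202 FPKM in control and at 0.383 and 0.338 in GLUP, so that both GLUP libraries were above both control libraries at levels under the filter. Its paralogue MED12L, outside the list of 32, was also under the filter. CCNC exceeded CDK8 by 23.8 and 28.9 times in control and by 12.1 and 17.0 times in GLUP.

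The make-up of the Mediator transcripts by module differed between the groups, with no overlap for the head, middle, tail and kinase shares. The levels of the 32 genes summed to 318 and 256 FPKM in control and to 267 and 268 in GLUP, so the sums overlapped. The middle module held 40.8% and 42.4% of the sum in control and 19.3% and 19.2% in GLUP. The tail held 39.6% and 36.1% in control and 64.5% and 66.1% in GLUP. The head held 15.2% and 16.9% in control and 13.9% and 12.6% in GLUP. Most of the tail share was MED30, which alone held 33.7% and 30.5% in control and 54.7% and 55.9% in GLUP. Without MED30 the direction was the same for the middle and tail, with a middle share of 61.5% and 61.1% in control against 42.7% and 43.6% in GLUP, and a tail share of 8.86% and 7.99% against 21.6% and 23.0%, whereas the head share turned, from 23.0% and 24.3% in control to 30.7% and 28.5% in GLUP. The kinase module held 4.37% and 4.53% in control and 2.19% and 2.11% in GLUP. Most of the kinase sum was CCNC, at 11.3 of 13.9 and 8.74 of 11.6 FPKM in control. In GLUP it was 4.24 of 5.84 and 3.59 of 5.67 FPKM. In the middle module MED10, MED7 and MED21 had the highest mean levels. The shares thus follow a few abundant genes and do not show that whole modules shifted. With 2 libraries against 2 an exact two-sided permutation test cannot give a p under 0.333, so these shares were not tested, and they use the fold changes that were known when the genes were listed.

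**Figure D3:**
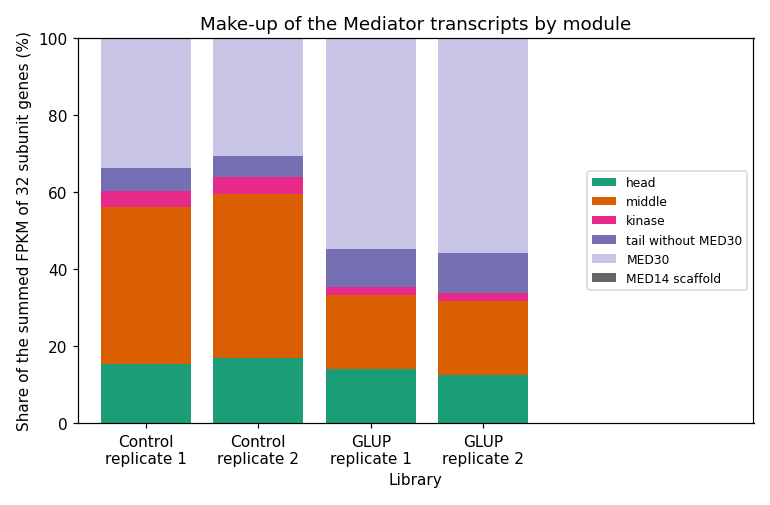
Share of the summed FPKM of the 32 subunit genes (percent) held by each module in each of the 4 libraries, with MED30 drawn apart from the rest of the tail and MED14 too small to see. The middle share is 40.8% and 42.4% in the control libraries and 19.3% and 19.2% in the GLUP libraries, and the MED30 share goes from 33.7% and 30.5% to 54.7% and 55.9%.

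Ratios within a library do not depend on its scaling. MED7 was 6.22 and 8.16 times as high as MED27 in the control libraries and 0.474 and 0.452 times as high in the GLUP libraries. MED7 and MED27 have the lowest and the highest fold change of the tested subunit genes. Their ratio restates those fold changes and is no separate observation. MED7 was also closer to, or below, genes of its own module in GLUP. It was 12.2 and 12.1 times as high as MED31 in control and 5.13 and 5.54 times in GLUP. Its ratio to MED21, its partner in the hinge, was 1.84 and 1.07 in control and 0.890 and 0.819 in GLUP. MED27 was 1.60 and 1.10 times as high as MED29, a neighbour in the complex, in control and 4.19 and 3.86 times in GLUP. These ratios show unequal differences, and do not show which gene of a pair differed. The ratios of MED11 to MED22, MED18 to MED20 and CDK8 to CDK19 overlapped between the groups.

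The fold changes of the subunit genes went with the GC content of their transcripts, as did those of all genes. Across the 20 genes tested the Spearman rho between the GC content of the longest transcript and the log2 fold change was 0.69, and across all genes tested it was 0.58. All genes tested were put into 5 equal groups by GC content, and their median log2 fold changes were -0.78, -0.64, -0.41, 0.018 and 0.44 from the lowest to the highest GC group. All 6 tested subunit genes of the lowest GC group were lower in GLUP, as were 93.2% of all genes in it. CCNC (35.3% GC), MED21 (35.4%) and MED7 (39.6%) were in this group. MED16 (64.8%) and MED24 (56.7%) were in the highest. MED27 (43.5%) and MED30 (44.6%) were higher in GLUP while the median of genes with similar GC content was lower.

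After a correction for GC content the values of some genes moved by over 1.5 times. The log2 fold change of MED21 became -0.87, that of CCNC -0.30, that of MED31 -0.23, that of MED24 0.49, that of MED16 0.11 and that of MED30 1.20, whereas MED7 stood at -1.67 and MED27 at 1.78. The sign changed from lower to higher for 6 of the 20 (MED4 at 0.17, MED6 at 0.18, MED10 at 0.04, MED13 at 0.19, MED20 at 0.10 and MED28 at 0.47), and 8 were lower. MED7 was then the only gene lower by over 2-fold with an unadjusted p under 0.05, and MED27 and MED30 were higher by this rule. What the relation with GC content owes to the libraries or to the peptide was not tested.

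**Figure D4:**
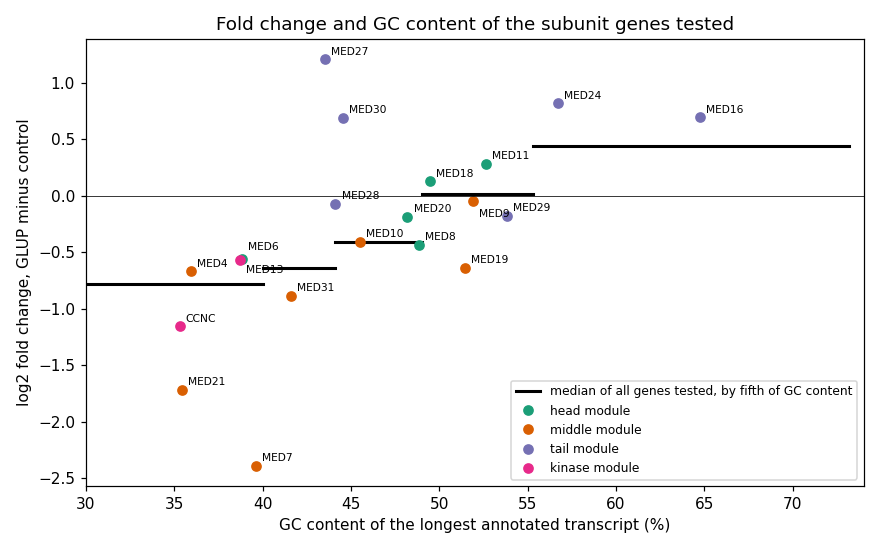
Log2 fold change (GLUP minus control) of the 20 subunit genes tested against the GC content of the longest annotated transcript (percent), coloured by module, with black bars for the median of all genes tested in each of 5 equal groups by GC content. MED7 lies far below and MED27 and MED30 far above the bar of their GC group, whereas MED4, MED6 and MED13 lie near it.

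The plot against GC content sets the subunit genes beside all genes, and genes that work with Mediator were counted in the same fit. Of 12 RNA polymerase II subunits 11 were tested, 5 of them lower, with a median log2 fold change of 0.06. By a fold change over 2 with an unadjusted p under 0.05, which 14.5% of all genes tested passed as lower and 4.67% as higher, POLR2K was lower (-2.10) and POLR2E (2.32) and POLR2L (1.5) were higher. Of 18 general transcription factor genes 17 were tested and 15 were lower (66.7% of all genes tested), with a median of -0.84, and 7 were lower by the same rule (GTF2E2, CDK7, GTF2B, GTF2F2, MNAT1, GTF2A2 and CCNH). Of these 7, CDK7, CCNH and MNAT1, encode the kinase part of TFIIH. CDK7 had a log2 fold change of -1.34. Of the 13 TAF subunits of TFIID 9 were tested and 7 were lower (beside 66.7% of all genes), with a median of -0.29, TAF9 lower (-1.23) and TAF6 higher (1.08) by the rule. Cohesin and its loader, which hold enhancers and promoters together with Mediator, had 5 of 7 genes tested and all 5 lower (beside 66.7% of all genes), with a median of -0.62 and RAD21 lower by the rule (-1.06). Of 15 pause and elongation factors 8 were tested and 3 were lower, with a median of 0.25 and 0 past the rule. Of the acetyltransferases EP300, CREBBP, KAT2A and KAT2B, KAT2A alone was tested, at 0.77. None of these genes passed an adjusted p of 0.05 in limma. The low medians went with low GC content here too, since the tested general transcription factor genes had a median GC content of 39.9% and those of RNA polymerase II 55.5%.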

How the data were processed

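Total RNA of HGC-27 cells was sequenced in 4 libraries, 2 per group, on an Illumina HiSeq. The authors deposited FPKM values per gene. The submitters' processing notes name HISAT2, Cufflinks, RSEM and GRCh38.p10, without a role for each. The gene IDs carry the suffix of GENCODE annotation lifted to GRCh37. Of 62492 rows 49 were second copies of pseudoautosomal genes and were summed, and 99.55% of the 62443 genes were named through the GENCODE annotation, of which the release differs (9398 rows matched with their version). Because low values show no steps of a single read, depth is unknown, and the counting error of the values could not be estimated.

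Values were compared as log2(FPKM + 1) for the 7588 genes whose mean reached 1 FPKM, by a gene-wise linear model with a variance trend and Benjamini-Hochberg adjustment (limma 3.58.1, R 4.3.3). The code was tested on simulated data. The members, the lists and the rule for named genes were chosen with earlier results of these data known. Values by library are given for the 3 tested genes with the largest absolute fold change in each module, the kinase paralogues and a few fixed genes. MED10, MED30, MED23, and the overlapping genes were added to these after their values were seen, and the other partner genes named are those past the fold and p rule. GC content was known for 7570 genes, and its correction subtracted a lowess curve (span 0.3) from each library. Alternatives were a pseudocount of 0.1, no filter beyond a value above 0, a filter at 5 FPKM, centring, quantile normalization, GC correction, the replicate number as a block, no trend, a fold change of 1.5, no pseudocount, another module assignment and leaving out each library.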

Additional observations from a re-analysis of the deposited data

How the results depend on the processing

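The fold changes of MED7, MED21, CCNC and MED27 kept their direction under all alternatives run, and the summaries over the subunit genes depended on the scaling and the filter. The cause of the shifts was not tested, except that a filter at 5 FPKM leaves 11 subunit genes. The 1457 genes changed over 2-fold with an unadjusted p under 0.05 became 890 with a mean of at least 5 FPKM, 700 with the GC correction, 834 with the GC correction and the replicate block, 2401 at 1.5-fold, and between 587 and 2729 without 1 library. The share of these that were higher, 24.3%, was 65.0% after centring, 58.1% after quantile normalization, 50.7% after the GC correction, 51.3% with the block added to it, 35.9% without control replicate 1 and 35.4% without GLUP replicate 2. The 2 genes with an adjusted p under 0.05 in limma became 1 with a pseudocount of 0.1, 1 after centring, 1 after quantile normalization, 16 with the GC correction and the block, and 0 with all genes above 0 (1293 at an unadjusted p under 0.05), with a mean of at least 5 FPKM (890), with the GC correction (700) and without the variance trend (1461), where these unadjusted counts are of changes over 2-fold. Without 1 library they lay between 4 and 2710.

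The replicate numbers were not treated as pairs, because nothing ties equal numbers to a shared day and there are 2 pairs (their deviations correlated at 0.13 over 7588 genes). With the replicate number as a block 1688 genes changed by the unadjusted rule and the smallest adjusted p of a subunit gene was 0.0712 in limma. The block cannot change the fold changes, or counts and medians taken from them, since each replicate number occurs in both groups. The calls, which use the p-value, could differ and were again 3 lower and 1 higher. Of 263 values of single subunit genes under the alternatives, 195 moved by less than the spread between replicates or kept their call. A further 56 moved by more and 12 (of MED21, MED27 and CCNC) lost the unadjusted call, and 0 calls changed direction. Part of the 195 could not move. The other filters, the block and the fit without the trend leave a fold change as it was (MED6 at -0.56 in each). Genes under the filter had only the fit with all genes above 0, which was also their main value. The count of 195 is therefore no measure of stability.

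The 14 of 20 subunit genes that were lower (66.7% of all genes tested) became 9 of the 11 left at 5 FPKM. With all genes above 0 they were 21 of 32, beside 16596 of 28873 genes. Of 20, 10 were lower after centring, 11 after quantile normalization and 8 with the GC correction, alone or with the block. Between 11 and 14 were lower without 1 library. Shares of all genes under the other settings are not given here. The 11 of 20 with both GLUP libraries below (49.7% of all genes tested) became 7 of 11 at 5 FPKM. With all genes above 0 they were 13 of 32, beside 7650 of 28873 genes. Of the 20 they were 5 after centring, 5 after quantile normalization and 6 with the GC correction, alone or with the block. Without 1 library they were between 11 and 13 of the tested subunit genes. Their median log2 fold change of -0.29 was -0.38 with a pseudocount of 0.1, -0.10 with all genes above 0, -0.56 at 5 FPKM, 0.048 after centring, -0.034 after quantile normalization, 0.10 with the GC correction, alone or with the block, -0.40 for ratios without a pseudocount, and between -0.36 and -0.18 without 1 library. Relative to all genes the median of 0.06 was -0.080 with all genes above 0, -0.14 at 5 FPKM and between -0.019 and 0.16 without 1 library. The 3 genes lower by the unadjusted rule became 1 with the GC correction, alone or with the block, and 2 to 3 without 1 library. The 1 higher gene became 4 after centring, 2 with a pseudocount of 0.1, quantile normalization, the GC correction (alone or with the block) or 1.5-fold, and 0 to 1 without 1 library.

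The median of the head relative to all genes, 0.17, was -0.16 with all genes above 0, -0.069 at 5 FPKM, 0.090 after quantile normalization, 0.29 with MED27 to MED30 placed in it, and between 0.040 and 0.29 without 1 library. That of the middle, -0.31, was -0.62 with all genes above 0, -0.19 after quantile normalization and between -0.52 and -0.20 without 1 library. That of the tail, 1.05, was 1.49 with a pseudocount of 0.1, 0.71 with all genes above 0, 0.48 with the GC correction, alone or with the block, and between 0.82 and 1.24 without 1 library. That of the kinase module, -0.51, was -0.68 with a pseudocount of 0.1, -0.094 with all genes above 0, -0.73 at 5 FPKM, -0.061 with the GC correction, alone or with the block, and between -0.55 and -0.48 without 1 library.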
